A study of Mus musculus with 4 samples.

Results

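The matrix metalloproteinases (MMPs), the ADAMTS proteases, the ADAMTS-like proteins and the tissue inhibitors of metalloproteinases (Timps) were taken as every gene whose symbol begins with Mmp, Adamts, Adamtsl or Timp and a number. There were 49 of them among the 22180 genes of the array with a probe set naming 1 gene, and they comprised 22 Mmp, 18 Adamts, 5 Adamtsl and 4 Timp genes. Signals were measured on 4 arrays of whole retinal aggregates, 2 collected at day 4 and 2 at day 7 of differentiation in a retinal medium with matrigel. All 4 samples were wild type and came from the same mouse embryonic stem cell line, made from EB5 (129/Ola), with GFP knocked in under the promoter of Rx (Rax), so no mutant or treated sample enters the comparison. The series asks how optic vesicle and neuroretina arise, and its design sets day 7 against day 4.

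MMPs and ADAMTS proteases are secreted or membrane-bound enzymes that use a zinc ion to cut proteins outside the cell. MMPs cut collagens, gelatins, laminins and many other proteins and are made as inactive proenzymes. ADAMTS enzymes mature procollagens or cut proteoglycans such as versican and aggrecan, and ADAMTS-like proteins share their ancillary domains but lack the protease domain. Timps bind the active site of MMPs and block it, and Timp3 also inhibits several ADAMTS proteases. Timp2 also takes part in the activation of pro-Mmp2 at the cell surface. In neural tissue and the eye these genes act on the basement membrane around the neuroepithelium and on the versican-rich matrix through which cells and axons move.

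Between day 4 and day 7 the ADAMTS genes accounted for most of the rises, while most MMP genes were not called and the Timp genes split. A gene was called at an adjusted p under 0.05 in a limma fit of all genes. Of the 49 members 6 rose (Adamts3, Adamts1, Adamts20, Timp2, Adamts7 and Mmp16), 3 fell (Mmp25, Timp4 and Timp1) and 40 were not called. These are 12.2% and 6.12% of the members, against 6.15% and 4.33% of all genes called higher and lower, and 18.4% against 10.5% in either direction. The median day 7 minus day 4 difference was 0.04 log2 over the members and 0.00 over all genes, and the median of its absolute size was 0.23 over the members and 0.18 over all genes. The days did not overlap for 28 of the 49 (57.1%), of which 19 were higher and 9 lower at day 7, against 50.8% of all genes (25.6% higher and 25.1% lower).

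**Figure D1:**
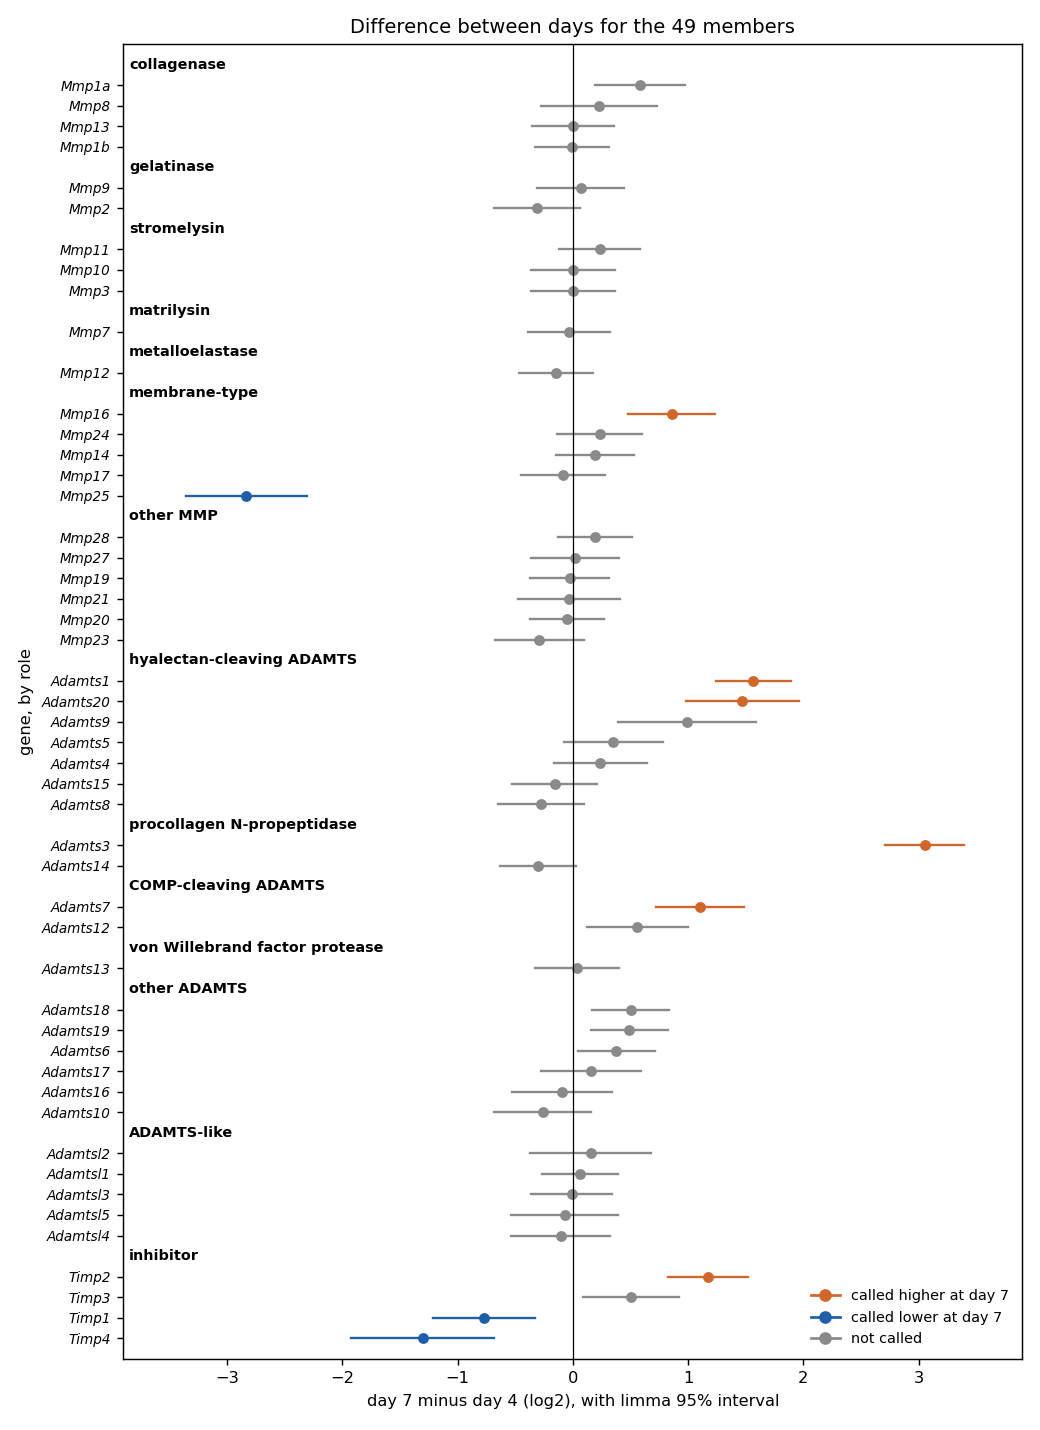
Day 7 minus day 4 difference in log2 signal for each of the 49 members, grouped by role, with limma's 95% interval over 2 arrays per day. Orange marks genes called higher, blue genes called lower and grey genes not called. Adamts3 lies farthest to the right at 3.05 and Mmp25 farthest to the left at -2.83, while most MMP genes sit near 0.

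The genes of this family differ in the sequence just upstream of their start, and a run of 10 neighbouring MMP genes stands out by it. In the order of protein-coding genes along chromosome 9 in RefSeq, Mmp13, Mmp12, Mmp1b, Mmp3, Mmp1a, Mmp10, Mmp8, Mmp27, Mmp20 and Mmp7 follow each other with no other gene between them. Upstream sequence of 250 bases was at hand for 34 of the 49 members, in 37 windows because 3 genes have more than 1 start (RefSeq, GRCm38.p6). The last 120 of these bases are printed 5′ to 3′ on the strand of the gene for 5 genes of the run, to show the pair of motifs that recurs there. Capitals mark every match to an AP-1 site (TGANTCA, which reads as the same pattern on both strands), to a TATA box (TATAAA) and to a GC box (GGGCGG), the last 2 searched on both strands. The windows are chr9:7272394-7272513 for Mmp13, chr9:7445702-7445821 for Mmp3, chr9:7502222-7502341 for Mmp10, chr9:7464021-7464140 for Mmp1a and chr9:7691970-7692089 for the first start of Mmp7, each on the plus strand.
Mmp13: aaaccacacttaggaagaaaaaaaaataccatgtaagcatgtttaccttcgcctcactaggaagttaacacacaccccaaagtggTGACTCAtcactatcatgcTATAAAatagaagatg
Mmp3: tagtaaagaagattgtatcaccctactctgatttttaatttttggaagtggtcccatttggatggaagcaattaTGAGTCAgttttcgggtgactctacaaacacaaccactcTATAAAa
Mmp10: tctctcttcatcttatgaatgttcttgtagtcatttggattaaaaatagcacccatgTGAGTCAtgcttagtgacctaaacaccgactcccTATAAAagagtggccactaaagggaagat
Mmp1a: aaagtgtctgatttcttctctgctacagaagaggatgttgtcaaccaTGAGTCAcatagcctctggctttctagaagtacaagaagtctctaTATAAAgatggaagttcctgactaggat
Mmp7: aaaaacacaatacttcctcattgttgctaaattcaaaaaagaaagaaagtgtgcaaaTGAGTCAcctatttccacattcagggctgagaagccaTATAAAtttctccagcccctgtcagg

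The same stretch is printed for Adamts3, Adamts1 and Timp2, called members with a window that rose, to show the contrast in base composition with the run. The windows are chr5:89883335-89883454 for Adamts3, chr16:85803114-85803233 for Adamts1 and chr11:118355412-118355531 for Timp2, each on the minus strand, with capitals as above.
Adamts3: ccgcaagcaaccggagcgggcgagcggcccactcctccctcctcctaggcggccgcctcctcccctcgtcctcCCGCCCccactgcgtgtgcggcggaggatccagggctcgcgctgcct
Adamts1: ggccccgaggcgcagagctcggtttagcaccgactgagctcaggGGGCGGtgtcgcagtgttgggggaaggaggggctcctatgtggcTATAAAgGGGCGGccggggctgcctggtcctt
Timp2: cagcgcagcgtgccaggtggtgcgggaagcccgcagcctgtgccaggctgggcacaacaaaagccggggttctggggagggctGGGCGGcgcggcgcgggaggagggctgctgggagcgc

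An AP-1 match was found in the 250 bases of 8 of the 12 windows of the chromosome 9 run (66.7%), in 0 of the 25 windows of the other members and in 6.75% of all 32851 windows of this length. In Mmp10 the match ended 57 bases upstream of the start with a TATA box 24 bases upstream, and in Mmp1a these distances were 67 and 23. The distances varied over the run, with 40 and 2 in Mmp3, 29 and 11 in Mmp13, 87 and 44 in Mmp1b and 89 and 53 in Mmp20. The first start of Mmp7 had the match at 57 and TATA boxes at 21 and 118. The second start of Mmp12 had a match at 38 without a TATA box. Neither motif was found upstream of Mmp8, Mmp27, the first start of Mmp12 or the second start of Mmp7. A TATA box lay in 7 of the 12 windows of the run (58.3%) and in 12.4% of all windows. GC boxes showed the reverse, with 0 of the 12 windows of the run, 18 of the 25 windows of the other members (72.0%) and 32.7% of all windows. The number of CpG dinucleotides per window was between 0 and 7 in the run, with a median of 1, and had a median of 6 over all windows. In the 25 windows of the other members it ran from 1 to 39 with a median of 15, called or not. It was 15 to 35 in the 4 members with a window that rose and 2 to 17 in the 3 that fell, while Adamtsl3 (39), Adamts14 (35) and Mmp24 (33) were not called. A TCF/LEF match (ATCAAAG, both strands), searched because Wnt signalling uses these factors, was found in 1 of the 37 member windows (2.70%), that of the second start of Mmp7, and in 3.21% of all windows. A match to letters is not a bound site, and binding was not measured.

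**Figure D2:**
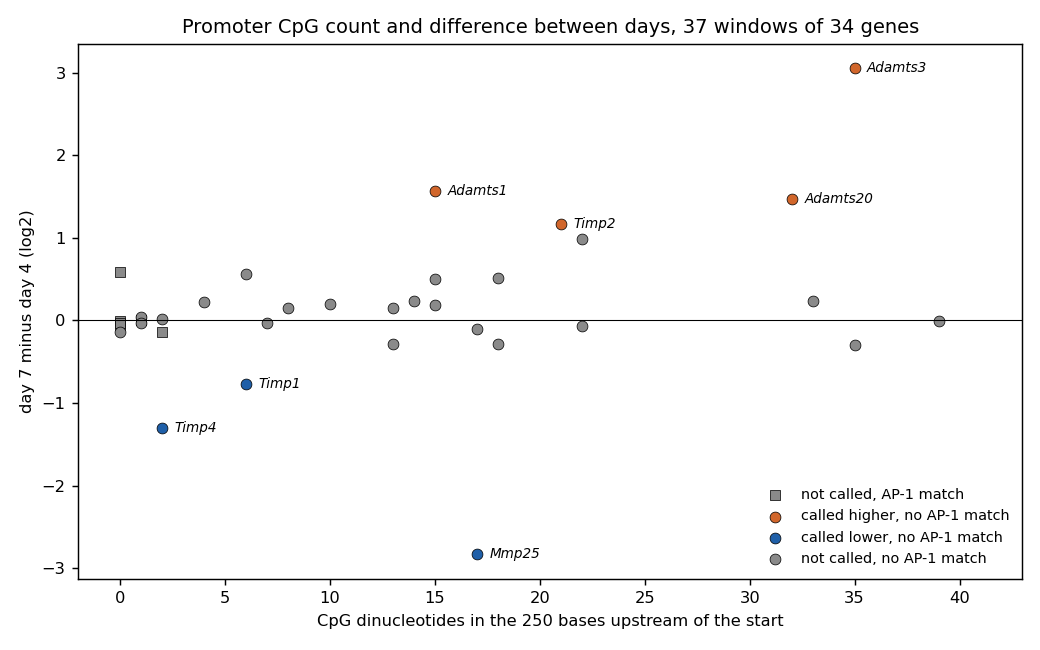
CpG dinucleotides in the 250 bases upstream of the start against the day 7 minus day 4 difference in log2 signal, for 37 windows of 34 members. Squares have an AP-1 match and circles have none. The squares sit between 0 and 2 CpGs and none was called, where 10.5% of all genes were. Among CpG-rich windows Adamts3 and Adamts14 both have 35 CpGs and lie at 3.05 and -0.30, and Adamtsl3, with 39, lies at -0.01.

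None of the 10 genes of the chromosome 9 run was called, where 10.5% of all genes were. For 8 of the 10 the mean signal was under 4.60, the 25th percentile of all genes. Background was not measured. For 9 of the 10 the difference lay between -0.15 and 0.23 log2. The exception was Mmp1a, a collagenase, which read 3.01 and 3.16 at day 4 and 3.50 and 3.83 at day 7. Both day 7 arrays were above both day 4 arrays, by a difference of 0.58 log2 (SE 0.166, adjusted p = 0.0758, 0.0365 to 0.411 over the alternatives, 4 of 10 past the limit, among them the fits with an intensity trend and with arrays centred on their median). Mmp8, the neutrophil collagenase, read 4.06 and 4.64 at day 4 and 4.46 and 4.69 at day 7, so its days overlapped. Mmp13, the collagenase of cartilage and bone, Mmp3, a stromelysin, and Mmp10, another stromelysin, each had a difference of 0.00 with limits near 0.36 log2 on either side.

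The gelatinases were not called. Mmp2, the gelatinase that cuts type IV collagen of basement membranes, read 9.78 and 9.76 at day 4 and 9.30 and 9.61 at day 7. The day 7 arrays were both lower, but the difference of -0.31 log2 had a 95% interval from -0.69 to 0.06 (adjusted p = 0.308). Mmp9, the other gelatinase, read 5.83 and 5.74 at day 4 and 5.70 and 6.005 at day 7, and its days overlapped. Its difference of 0.07 had an interval from -0.31 to 0.45. Mmp11, a stromelysin with little activity on the usual matrix proteins, had a difference of 0.23 log2 (adjusted p = 0.445).

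Membrane-type MMPs, which are held at the cell surface, included both MMP genes that were called. Mmp25 (probe set 17341508), a protease with a lipid anchor first known from leukocytes, read 8.43 and 7.86 at day 4 and 5.15 and 5.47 at day 7. Both day 4 arrays stood well above both day 7 arrays, and the signal fell 7.13-fold (log2 difference -2.83, SE 0.223, adjusted p = 0.000574). Mmp16 (probe set 17412013), a transmembrane protease that can activate pro-Mmp2, read 6.16 and 5.85 at day 4 and 6.91 and 6.81 at day 7. It rose 1.81-fold (log2 difference 0.86, SE 0.161, adjusted p = 0.0166). The adjusted p of Mmp16 was 0.136 with day 7 replicate 1 left out and 0.0924 with day 7 replicate 2 left out (0.00728 to 0.136 over the alternatives), and the number of all genes called higher then dropped from 1364 to 573 or 599.

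Mmp14, the main surface activator of pro-Mmp2, read 7.75 and 7.57 at day 4 and 7.84 and 7.86 at day 7. The day 7 arrays were both higher, by 0.19 log2 with a 95% interval from -0.15 to 0.53 (adjusted p = 0.528). Mmp17, another protease with a lipid anchor, and Mmp24, a transmembrane protease of the nervous system, had differences of -0.09 and 0.23. The remaining MMPs, Mmp19, Mmp20 (a tooth enamel protease), Mmp21, Mmp23, Mmp27 and Mmp28, had differences between -0.29 and 0.19, with adjusted p-values of 0.365 or more.

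**Figure D3:**
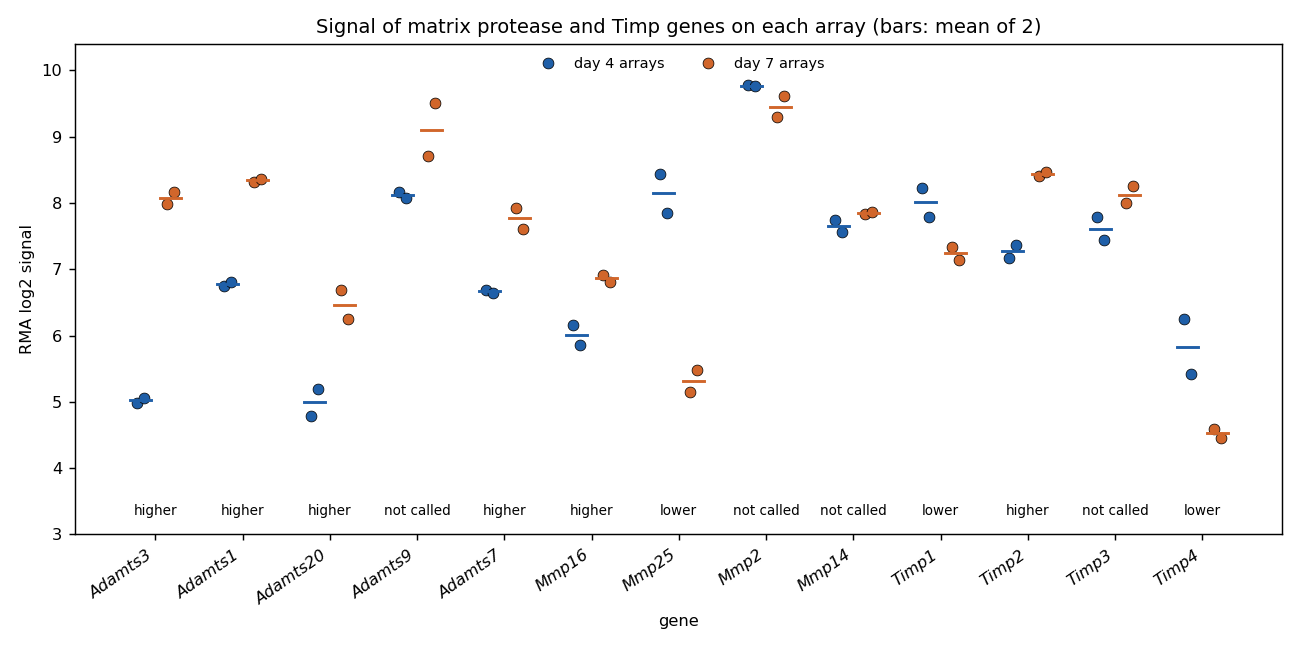
RMA log2 signal on each array for the 9 called members and for Adamts9, Mmp2, Mmp14 and Timp3, with day 4 in blue and day 7 in orange. Points are arrays and bars are means of 2. The day 7 points of Adamts3, near 8, lie clear of its day 4 points near 5, and Timp2 and Timp1 move in opposite directions.

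ADAMTS genes gave 4 of the 6 rises, with 4 of 18 higher, 0 lower and 14 not called. Of all genes 6.15% were called higher and 4.33% lower. Over the 18 genes the median difference was 0.36 log2, and 13 of 18 differences were above 0, against 49.3% of all genes. Among the 14 not called the differences ran from -0.30 to 0.99.

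Adamts3 (probe set 17449488), which removes the N-propeptide of fibrillar procollagens and also processes the growth factor Vegfc, read 4.98 and 5.07 at day 4 and 7.98 and 8.17 at day 7. Both day 7 arrays were far above both day 4 arrays. The rise was 8.29-fold, with a 95% interval from 6.53-fold to 10.5-fold (log2 difference 3.05, SE 0.146, adjusted p = 9.78e-05). Adamts14, the other procollagen N-propeptidase measured, read 6.43 and 6.55 at day 4 and 6.18 and 6.20 at day 7. Its day 7 arrays were both lower, by 0.30 log2 (adjusted p = 0.263), and a second, dimmer probe set of Adamts14 had a difference of 0.18 in the other direction. Col2a1, the type II collagen chain and a substrate of Adamts3, read 6.59 and 7.16 at day 4 and 8.31 and 8.38 at day 7, and rose 2.77-fold (log2 difference 1.47, SE 0.203, adjusted p = 0.00501). The other fibrillar chain genes listed had higher day 7 arrays but were not called. Their differences were 0.51 for Col1a1 (adjusted p = 0.289), 0.65 for Col1a2 (0.0759) and 1.42 for Col3a1 (0.0562).

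Proteases that cut versican and aggrecan gave 2 rises among 7 genes, where 6.15% of all genes were called higher. Adamts1 (probe set 17331705) read 6.74 and 6.80 at day 4 and 8.32 and 8.36 at day 7. The replicates were close within each day and the signal rose 2.96-fold (log2 difference 1.57, SE 0.137, adjusted p = 0.000851). Adamts5, an aggrecanase and the protein-coding gene next to Adamts1 on chromosome 16, read 3.96 and 3.62 at day 4 and 4.29 and 3.99 at day 7. Its day 7 arrays were both higher, by 0.35 log2, at signals under the 25th percentile of all genes (adjusted p = 0.318).

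Adamts20 (probe set 17320737), the gene mutated in belted mice and needed for pigment cell precursors to survive in the skin, read 4.80 and 5.19 at day 4 and 6.68 and 6.25 at day 7. It rose 2.77-fold (log2 difference 1.47, SE 0.207, adjusted p = 0.00538). Adamts9, a versican-cutting protease of embryonic tissues, read 8.17 and 8.07 at day 4 and 8.71 and 9.51 at day 7. Both day 7 arrays were higher, but they lay 0.80 apart and the difference of 0.99 log2 (SE 0.253) just missed the limit (adjusted p = 0.0523, 0.0128 to 0.207 over the alternatives). Adamts9 passed under 7 of 12 alternatives, among them each array centred on its median (adjusted p = 0.0128), the fit without day 7 replicate 1 (0.0195, difference 1.39) and the fit with the replicate number as a block (0.0410). Without day 7 replicate 2 its difference was 0.59 (adjusted p = 0.207).

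Adamts4, an aggrecanase, had a difference of 0.24, Adamts8 one of -0.27 and Adamts15, its neighbour on chromosome 9, one of -0.16, with none called. Of the substrates of this group, Vcan (versican) read 8.75 and 8.12 at day 4 and 9.56 and 9.47 at day 7 and rose 2.11-fold (log2 difference 1.08, SE 0.216, adjusted p = 0.0213). Leaving out day 7 replicate 1 gave Vcan an adjusted p of 0.143, and leaving out replicate 2 of that day gave 0.108 (0.00292 to 0.143 across alternatives). Acan (aggrecan) had a difference of -0.50 and was not called (adjusted p = 0.0777).

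Both proteases of cartilage oligomeric matrix protein had day 7 arrays above day 4, as did 25.6% of all genes. Adamts7 (probe set 17520254) read 6.68 and 6.65 at day 4 and 7.93 and 7.61 at day 7, and rose 2.15-fold (log2 difference 1.10, SE 0.160, adjusted p = 0.00618). Without day 7 replicate 1 its adjusted p was 0.0633 (0.00183 to 0.0633 over the alternatives). Adamts12 read 5.10 and 5.45 at day 4 and 5.67 and 6.002 at day 7, a difference of 0.56 that was not called (adjusted p = 0.120). Comp, the gene of their substrate, read 4.46 and 5.16 at day 4 and 4.85 and 4.93 at day 7. Its days overlapped (difference 0.08, adjusted p = 0.901).

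The other ADAMTS genes were not called. Adamts18, linked to eye development, read 4.34 and 4.30 at day 4 and 4.89 and 4.75 at day 7, at a difference of 0.50 (adjusted p = 0.0723, 0.0593 to 0.383 over the alternatives). Adamts19 read 6.43 and 6.34 at day 4 and 6.82 and 6.92 at day 7, at a difference of 0.49 (adjusted p = 0.0758, 0.0307 to 0.367 over the alternatives), and passed 1 of 12, that with genes above the 50th percentile of level. Adamts6 read 7.17 and 7.13 at day 4 and 7.45 and 7.61 at day 7, at a difference of 0.38 (adjusted p = 0.166). In these 3 genes both day 7 arrays were above both day 4 arrays and limma's 95% intervals lay above 0 (0.17 to 0.83 for Adamts18, 0.16 to 0.82 for Adamts19 and 0.04 to 0.71 for Adamts6), but they missed the limit adjusted over all genes. Adamts10, which acts on fibrillin microfibrils, read 8.03 and 8.44 at day 4 and 7.91 and 8.05 at day 7, with overlapping days (difference -0.26, adjusted p = 0.482). Adamts13, the protease of von Willebrand factor, Adamts16 and Adamts17 had differences of 0.04, -0.10 and 0.15.

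The 5 ADAMTS-like genes, whose proteins bind fibrillin microfibrils or other matrix, were not called and had differences from -0.10 to 0.16. Adamtsl1 read 5.17 on both day 4 arrays and 5.18 and 5.29 at day 7, and the days of the other 4 overlapped. Fbn2, a fibrillin of embryonic microfibrils, moved far more. It read 6.01 and 6.21 at day 4 and 8.49 and 9.31 at day 7, a rise of 6.91-fold (log2 difference 2.79, SE 0.261, adjusted p = 0.00108).

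The 4 inhibitors went in different directions, and the days of each lay apart, as they did for 50.8% of all genes. Of the 4, 1 was called higher and 2 lower, where 6.15% and 4.33% of all genes were. Timp2 (probe set 17272770), which with Mmp14 holds pro-Mmp2 at the cell surface, read 7.18 and 7.36 at day 4 and 8.41 and 8.47 at day 7. It rose 2.25-fold (log2 difference 1.17, SE 0.145, adjusted p = 0.00312). Timp3, which stays bound to the matrix, also inhibits several ADAM and ADAMTS proteases and is the gene of Sorsby fundus dystrophy, read 7.78 and 7.45 at day 4 and 7.99 and 8.25 at day 7. Its difference of 0.51 log2 (SE 0.176, 95% interval from 0.09 to 0.92) was not called (adjusted p = 0.134).

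Timp1 (probe set 17533713), a soluble inhibitor that is weak against several membrane-type MMPs, read 8.23 and 7.79 at day 4 and 7.34 and 7.14 at day 7. It fell 1.71-fold (log2 difference -0.77, SE 0.187, adjusted p = 0.0444). Timp4 (probe set 17469879), an inhibitor of narrow tissue range, read 6.25 and 5.42 at day 4 and 4.60 and 4.46 at day 7. It fell 2.47-fold (log2 difference -1.30, SE 0.263, adjusted p = 0.0219), with most of the spread between the day 4 arrays. Timp1 missed the limit when any of 3 arrays was left out, day 4 replicate 1 (adjusted p = 0.121), day 7 replicate 1 (0.149) or day 7 replicate 2 (0.256), and its adjusted p ranged from 0.0128 to 0.256 across alternatives. Timp4 missed it when day 7 replicate 1 (0.110) or day 7 replicate 2 (0.134) was left out, with a range of 0.00104 to 0.134.

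Genes that regulate these enzymes or belong to the same system moved both ways. Of 25 measured regulators and partners 5 rose, 3 fell and 17 were not called, with a median difference of 0.02. The shares of all genes called higher and lower were 6.15% and 4.33%. Thbs1, a matricellular protein that binds several proteases, rose most, from 6.84 and 7.86 at day 4 to 9.70 and 9.37 at day 7 (log2 difference 2.18, adjusted p = 0.00608). Rises also passed for Wfikkn1, a secreted protein with protease inhibitor domains (1.18), Plat, the tissue plasminogen activator (1.16), Spock1, a testican proteoglycan (1.13), and Pcsk5, a proprotein convertase (0.99). The falls were those of A2m, a protease trap of body fluids (-1.52, adjusted p = 0.0012), Spock2, another testican (-1.50, adjusted p = 0.00119), and Thbs2, a relative of Thbs1 (-0.96, adjusted p = 0.0149). Reck, a membrane-anchored MMP inhibitor, had a difference of 0.25 (adjusted p = 0.449), and Furin, which activates membrane-type MMPs, one of -0.11 (adjusted p = 0.839). Pcsk5, Reck, Furin, Col4a2, Acan, Ncan, Bcan, Comp, Adam17, Col1a1, Col1a2 and Col3a1 were named after their values were seen.

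Without day 7 replicate 1 the adjusted p was 0.0559 for Thbs1, 0.0820 for Plat, 0.0679 for Spock1, 0.0600 for Pcsk5 and 0.129 for Thbs2. Without day 7 replicate 2 it was 0.108 for Wfikkn1, 0.0683 for Plat, 0.163 for Spock1, 0.147 for Pcsk5 and 0.0551 for Thbs2, and without day 4 replicate 1 it was 0.0549 for Pcsk5. A2m and Spock2 passed under each of the 12 alternatives. The lowest and highest adjusted p over them were 0.000152 and 0.0172 for A2m.

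Among the ADAM genes, which encode membrane-bound relatives that shed proteins from the cell surface, 2 of 13 rose and 11 were not called. The share of all genes called higher was 6.15%. Adam10, the main sheddase of Notch, read 8.63 and 8.48 at day 4 and 9.87 and 9.95 at day 7, and rose 2.56-fold (log2 difference 1.35, SE 0.143, adjusted p = 0.00165). Adam9 rose by 0.63 log2 (adjusted p = 0.0353), a call lost without day 4 replicate 2 (0.0878), day 7 replicate 1 (0.163) or day 7 replicate 2 (0.227). Adam17, the sheddase of tumour necrosis factor, had a difference of -0.04 (adjusted p = 0.941).

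Of 29 measured matrix substrates 5 rose, 1 fell and 23 were not called, with a median difference of 0.14. Among all genes 6.15% were called higher and 4.33% lower. Besides Fbn2, Col2a1 and Vcan, the basement membrane genes Nid1 (log2 difference 1.00, adjusted p = 0.0355) and Col4a2 (0.90, adjusted p = 0.0359) rose and the laminin chain gene Lama5 fell (-0.90, adjusted p = 0.0253). The last 3 were lost without single arrays. Leaving out day 4 replicate 1 gave Nid1 an adjusted p of 0.0676. Leaving out day 4 replicate 2 gave 0.0689 for Nid1, 0.0882 for Col4a2 and 0.0639 for Lama5. Leaving out day 7 replicate 1 gave Lama5 0.185, and leaving out day 7 replicate 2 gave 0.158 for Nid1, 0.214 for Col4a2 and 0.0554 for Lama5.

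**Figure D4:**
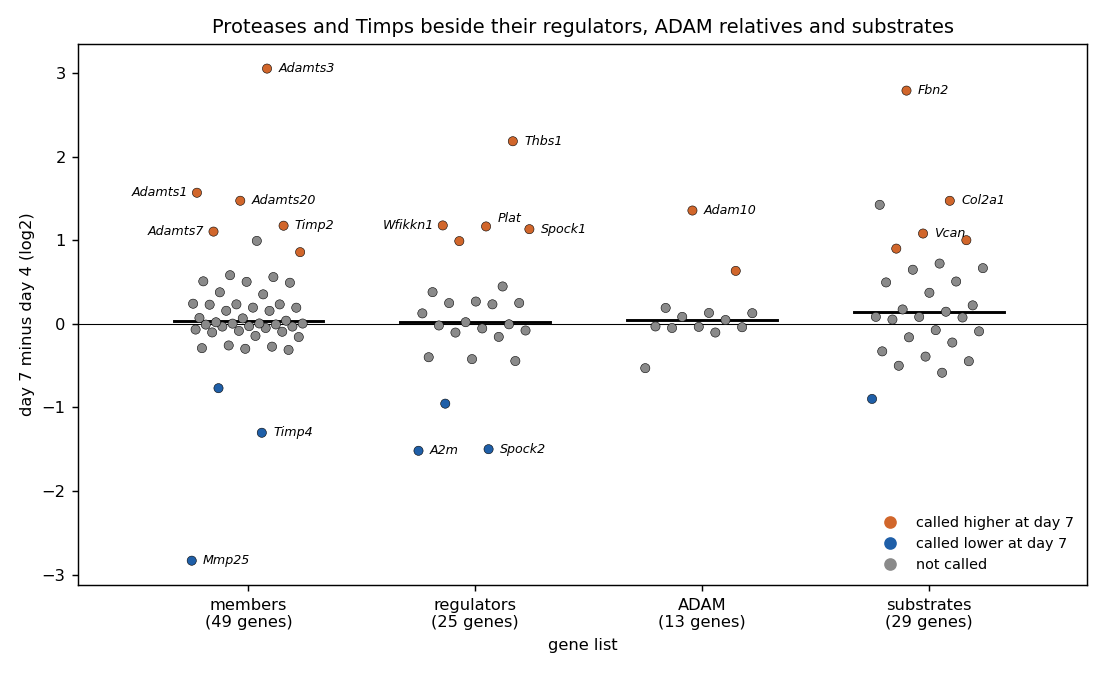
Day 7 minus day 4 difference in log2 signal for the 49 proteases and Timps, 25 regulators, 13 ADAM genes and 29 matrix substrates. Each point is a gene, horizontal bars are list medians (0.04, 0.02, 0.04 and 0.14), and colours mark the calls. Called genes with an absolute difference of about 1.1 or more are named, and in each list most points lie near 0.

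Replicates correlated with r = 0.986 at day 4 and 0.991 at day 7 over 41345 probe sets, which are not independent, and arrays of different days with 0.972 to 0.978. Of 8 measured retinal and neural markers 4 rose (Rax, Pax6, Lhx2 and Sox1). The 4 not called were Otx2 (difference -0.54), Six3 (0.36), Sox2 (0.22) and Six6 (2.00, with day 7 arrays 2.22 apart). Both day 7 arrays of Otx2 were below both day 4 arrays. Of 5 pluripotency markers 3 fell (Pou5f1, Fgf5 and Dnmt3b). Nanog (difference -0.56, adjusted p = 0.0531) and Zfp42 (-0.07, days overlapping) were not called, with day 7 means of 10.3 and 8.91. Markers of other cells also moved with the days, where 10.5% of all genes were called in either direction. Of 9 mesenchyme markers 5 rose (Postn, Twist1, Prrx1, Pdgfra and Acta2), and the mean over the 9 was 6.01 and 6.40 at day 4 and 7.70 and 7.81 at day 7. One or 2 genes were called among the markers of endoderm (Sox17 higher), endothelium (Kdr higher), macrophages and blood (Cd68 lower), neural crest (Sox10 higher, Foxd3 lower) and trophoblast (Tfap2c higher). Of the 4 measured macrophage and blood markers, Ptprc and Adgre1 had means under the 25th percentile, and Csf1r (5.05) and Cd68 (7.82) had means above it. Csf1r read 4.98 and 4.86 at day 4 and 5.18 and 5.17 at day 7 and was not called. In whole aggregates a change in the share of a cell type and a change in RNA per cell cannot be told apart, and the part of these cells in the protease and Timp differences was not tested. The labels do not state that replicates were separate cultures, so the spread behind each p-value is that between these samples and could be technical.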

How the data were processed

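Total RNA of 4 samples was labelled with biotin for an Affymetrix array, per the labels' protocols. Per the submitters' processing notes, the authors used RMA (Partek 6.5), and the deposited table holds their log2 signals. RMA corrects background, quantile-normalizes and summarises probes, so folds of dim genes are compressed and a change shared by most genes would be hidden. RMA settings are not given in the sources used here.

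A single gene is named by the platform annotation for 23521 of the 41345 probe sets. Each of 22180 genes was represented by its brightest probe set on average, and 4 of the 49 members had more than 1. The day was the only term of a limma 3.58.1 fit in R 4.3.3 (lmFit, eBayes, 2 residual degrees of freedom), with p-values adjusted by Benjamini-Hochberg over all genes. The fit was tested on simulated data. Intervals are limma's 95% intervals. The number of arrays limits the precision. Sample values are given for called members, the Timps and the 6 uncalled members with the highest means, and for others chosen by role. In the partner lists the called genes with the 4 largest rises and falls are named. Members and lists were chosen with earlier results of these data known. Alternatives tried were a block for the replicate number, omission of single arrays, quantile normalization, median centring, filters on dim genes at the 25th and 50th percentiles, an intensity trend with and without robust estimation, averaged probe sets, and limits of 0.01 and 0.1. Promoter sequences are from RefSeq (GRCm38.p6).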

Additional observations from a re-analysis of the deposited data

How the results depend on the processing

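Differences of 34 genes were recomputed under the alternatives (the called members and partner-list genes, and Timp3, Mmp1a, Mmp2, Mmp14, Adamts6, Adamts9, Adamts10, Adamts18 and Adamts19), and none of these 34 was reversed. Other named genes, some with differences near 0, were not recomputed. Adamts3, Adamts1, Adamts20, Timp2 and Mmp25 passed under each alternative that tested them. For the members, 10 were called higher at an adjusted p limit of 0.1 (6 at 0.05) and 1 lower at 0.01 (3 at 0.05), and their median difference was 0.23 on genes above the 50th percentile of level, which keeps 19 of the 49. Over all genes 675 were called higher and 403 lower at 0.01, against 1364 and 960 at 0.05. At 0.01 the called regulators numbered 4 (8 at 0.05), ADAM genes 1 (2) and substrates 2 (6). Called substrates numbered 11 at 0.1, and 10 with arrays centred on their median, with genes above the 50th percentile or with an intensity trend and robust estimation. Leaving out each array gave 5 to 6 members higher, 1 to 3 lower, 573 to 1378 genes higher, 314 to 1122 lower, 3 to 8 regulators, 1 to 2 ADAM genes, 2 to 7 substrates and a members' median from -0.03 to 0.12. The cause was not tested, except that leaving out an array leaves 1 sample for its day, assumed to vary like the other day. With the replicate number as a block, 9 members were called higher and 3 lower, with Adamts9, Adamts12 and Mmp1a added. The labels do not say that the number pairs samples, and deviations of same-numbered arrays correlated with r = 0.186 over 22180 genes, which are not independent. Scaling moved the median of all genes by under 0.1 log2. Slide and scan batches were not analysed here. Low signal limits what can be said of the 11 members with means under the 25th percentile, since signal over background was not measured.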

Other observations

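The day 7 arrays were not alike in these genes. Replicate 2 was above replicate 1 for 35 of the 49 members at day 7, with a median gap of 0.14 log2, against 47.3% of all genes and a median gap of -0.01. At day 4 replicate 2 was higher for 29 of 49, with a median gap of 0.08, against 51.5% of all genes and 0.01. The ADAMTS-like genes were higher in replicate 2 in 5 of 5 cases at day 4, with a median gap of 0.42, and in 5 of 5 at day 7, with a median of 0.17. Adamts9 had a gap of 0.80 at day 7, the fibrillin gene Fbn2 one of 0.81 and the basement membrane gene Nid1 one of 0.69. Several marker lists also leaned to day 7 replicate 2. It was higher for 6 of 6 endoderm markers (median gap 0.57) and 3 of 4 of endothelium (0.45). The counts were 6 of 8 for retinal and neural markers (0.27), 5 of 5 for pluripotency (0.21) and 6 of 9 for mesenchyme (0.19). They were 3 of 4 for trophoblast (0.02), 2 of 4 for macrophages and blood (0.06) and 2 of 4 for neural crest (-0.16). Whether these gaps share a source was not tested.

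Of the 4 members with a second probe set (Mmp7, Mmp11, Adamts8 and Adamts14), none was called by either. Both probe sets of Adamts8 were lower at day 7, with differences of -0.27 and -0.36. In the probe set used and the second one, the differences were 0.23 and 0.02 for Mmp11. They were -0.03 and 0.02 for Mmp7 and -0.30 and 0.18 for Adamts14.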
